A study of Mus musculus with 11 samples.

Results

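Messenger RNA of the colonic epithelium was compared between DSS-treated and baseline mice whose miR-181a and miR-181b genes were deleted. The comparison holds 6 of the 11 libraries of the series, 3 from DSS-treated and 3 from baseline mice, taken by their labelled genotype and treatment. All 6 carry the same double knockout (DKO), which removes the miR-181a1-b1 and miR-181a2-b2 clusters. DSS, dextran sulphate sodium, was given at 2% for 7 days, and 2 days of recovery followed. Baseline mice carry the label baseline, with no other treatment named. The other 5 libraries come from wild-type (WT) mice, 2 at baseline and 3 after the same DSS course. They entered the shared estimate of spread and the test of whether a response differed between genotypes. All cells were intestinal epithelial cells of the colon, passed through Percoll, a density medium, to remove lymphocytes. The sources used here do not give strain, age, sex or whether the clusters are deleted in all cells. The labels call the libraries biological replicates without naming animals, so the p-values measure only how much these libraries vary, which may in part be technical.

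The colonic epithelium renews itself from stem cells at the crypt base, which give rise to absorptive colonocytes and to secretory goblet, deep crypt secretory, enteroendocrine and tuft cells. DSS is a sulphated polysaccharide that damages this layer, and repair begins once it is withdrawn. MicroRNAs pair through their seed, the bases near the 5′ end, with messenger RNAs and lower their output. The miR-181 family is best known for tuning signalling in lymphocytes, and published targets include components of stress, survival and growth factor pathways.

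The mature miR-181 sequences are shown because they define what the DKO lost and what it kept. The capitals mark the seed, bases 2 to 8. The sequences are those of RefSeq on GRCm38.p6.
mmu-miR-181a-5p: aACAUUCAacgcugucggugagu
mmu-miR-181b-5p: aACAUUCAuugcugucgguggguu
mmu-miR-181c-5p: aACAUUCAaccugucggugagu
mmu-miR-181d-5p: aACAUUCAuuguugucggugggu
All 4 share the seed ACAUUCA. miR-181a-5p and miR-181b-5p are each encoded at a pair of loci, in Mir181a-1 and Mir181b-1 on chromosome 1 and in Mir181a-2 and Mir181b-2 on chromosome 2, and by the labels both pairs are deleted. miR-181c-5p and miR-181d-5p come from a cluster on chromosome 8 that the labels do not name as deleted. All 6 microRNA genes had 0 counts in all 11 libraries. Poly(A)-selected libraries are not made to hold short RNAs, so these zeros check nothing about the genotype.

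A broad part of the DKO transcriptome differed between the DSS and baseline libraries, which also differed in sex by their expression, as described below. Of 18500 autosomal genes tested with edgeR's quasi-likelihood test, 4361 (23.6%) were called at an adjusted p under 0.05. Of these, 2325 (12.6% of those tested) were higher after DSS and 2036 (11%) were lower. With a change of at least 2-fold, 806 genes (4.36%) were higher and 1202 (6.50%) lower. The median log2 fold change over all autosomal genes tested was 0.01, and medians of gene lists are given beside that value. List counts are read against the 12.6% and 11% called among all genes, and a share near these is no result about a list. These shares belong to the fit with all libraries. Under another setting fewer or more genes are called in all, so a list count there is not read against them. The DKO groups did not overlap in 7371 of the 18500 autosomal genes tested, so a lack of overlap alone is no result about a gene. Genes named by size of change were picked partly for it. In WT, 6185 of the same 18500 genes were called for the same treatment, from 2 baseline and 3 DSS libraries. Counts from separate tests on unlike numbers of libraries do not compare the genotypes. A test of the difference between the DKO and WT responses called 286 genes (1.55%), 144 (0.778%) with a higher response in DKO and 142 (0.768%) with a lower one. With a difference of at least 2-fold these were 127 genes (0.686%) and 107 genes (0.578%).

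**Figure D1:**
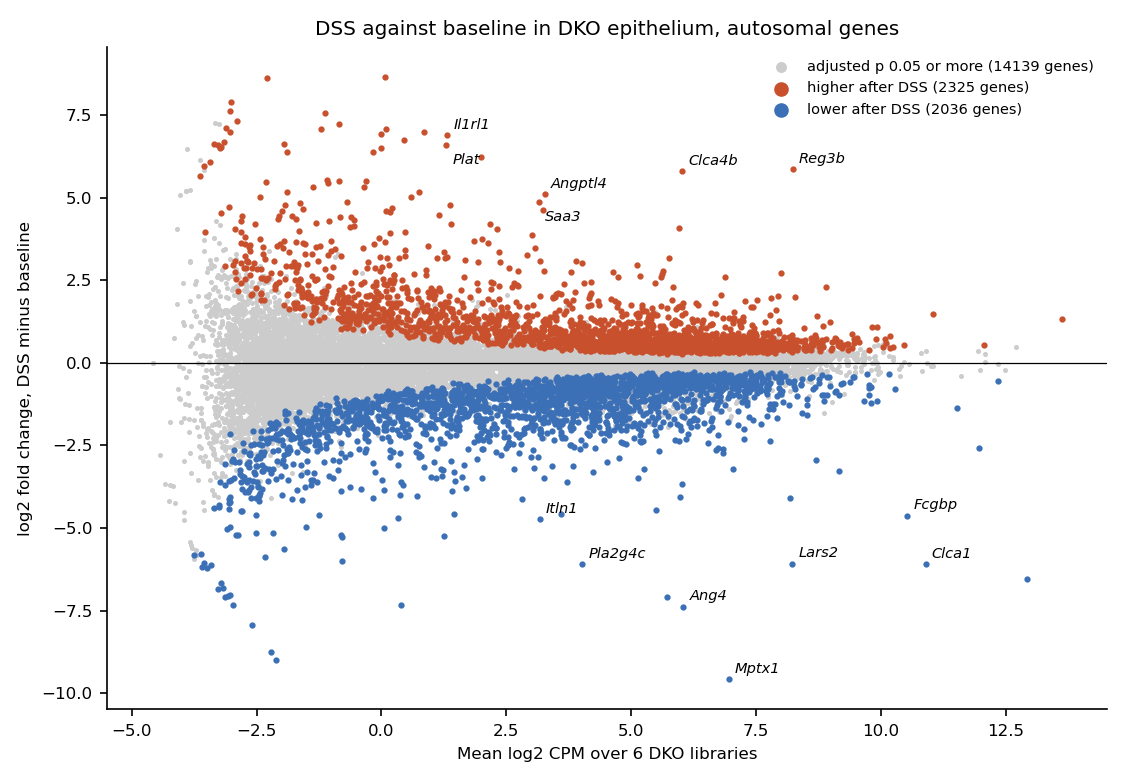
Each point is an autosomal gene, with its mean log2 CPM over the 6 DKO libraries on the horizontal axis and its log2 fold change, DSS minus baseline, on the vertical axis. The 2325 genes called higher and the 2036 called lower are coloured. Mptx1, Ang4, Clca1 and Pla2g4c lie at the bottom among well-expressed genes, and Reg3b and Clca4b at the top.

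The libraries differed in ways that bear on these values. Totals ranged from 41631951 to 51659993 counts at baseline and from 43721939 to 51300629 after DSS. An 18S ribosomal RNA entry held 23.05%, 8.46% and 0.315% of the counts of baseline DKO replicates 1, 2 and 3, and 0.128% to 0.168% of the DSS DKO libraries. Without ribosomal RNA the baseline totals were 30885159, 39949693 and 51228078. Removing ribosomal RNA entries and the entries that followed 18S left 4295 genes called, 4198 of them the same. Removing both libraries with much 18S leaves 1 baseline library, and 901 genes were then called, 370 higher and 531 lower, of which 875 were called with all libraries, and 2 of the 4361 calls turned sign. Without baseline DKO replicate 2 the count was 2488, and without DSS DKO replicate 2 it was 2848. In the paragraphs below, a gene named with a test kept its call with each library left out, with both 18S-rich libraries removed and under every other alternative tried apart from a 2-fold minimum, unless its sentence or a later one in the paragraph says otherwise.

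Every baseline library had the expression pattern of a male and every DSS library that of a female. Xist, which coats the inactive X of female cells, was at 14.5, 8.40 and 6.80 CPM (counts scaled by library size and TMM factor) in the baseline DKO libraries and 633, 709 and 716 CPM in the DSS DKO libraries. Kdm5d, a Y-linked histone demethylase, was at 68.6, 61.1 and 56.5 CPM at baseline and 0.0740, 0.101 and 0 CPM after DSS. Sex and DSS therefore cannot be told apart in any result given here, the counts above included. Only autosomal genes are counted here, and autosomal genes can also differ by sex.

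Calls followed the GC content of the transcripts. The 18106 autosomal genes with a known longest transcript were divided into 10 bins of equal size by its GC content. In the lowest bin, at a median of 39.3% GC, the median log2 fold change was 0.28, and 23.6% of genes were called higher and 3.42% lower. In the highest bin, at 59.3% GC, the median was -0.62, with 3.70% higher and 21.3% lower. The DSS DKO libraries differed among themselves in this respect. Genes of the highest bin deviated from the mean of all 11 libraries by a median log2 CPM of 0.45, 0.56 and 0.50 in baseline DKO replicates 1 to 3, and by 0.21, -0.13 and -0.62 in DSS DKO replicates 1 to 3. With the GC trend taken out of each library, 4123 genes were called, 2012 higher and 2111 lower. Of these, 3136 were called before, so 1225 of the 4361 calls were lost, and 34 of the 4361 turned sign and were not called.

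**Figure D2:**
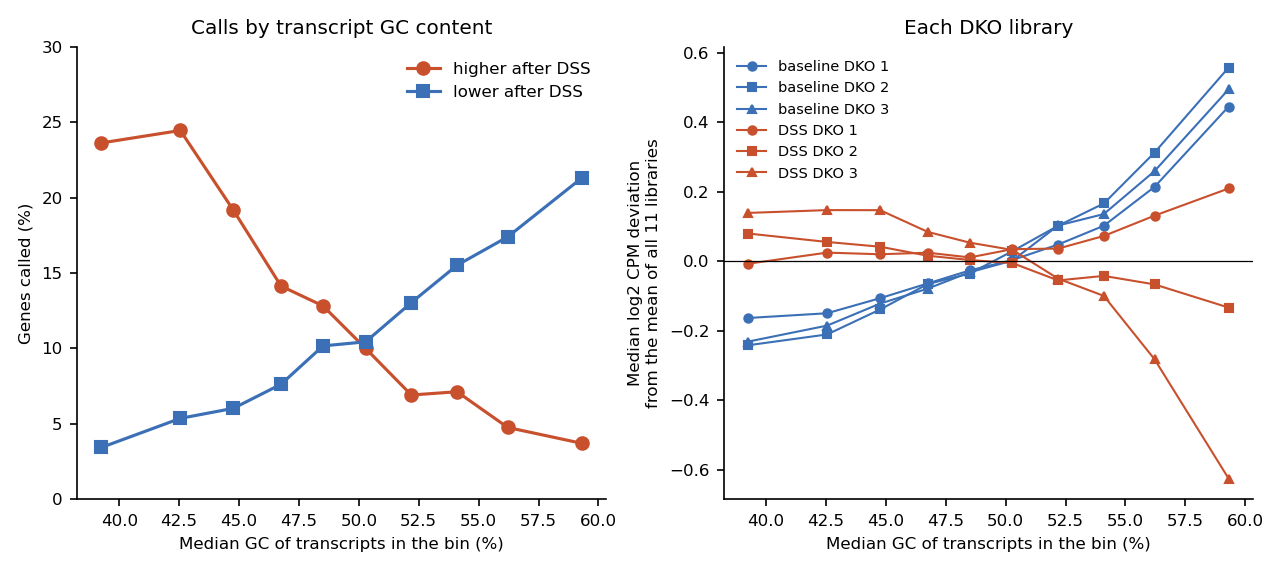
Left, the percent of autosomal genes called higher or lower after DSS, on the vertical axis, in each of 10 bins of transcript GC content, on the horizontal axis at the bin's median. Right, the median deviation of each bin in each DKO library from the mean of all 11 libraries, in log2 CPM. The baseline libraries run together up to 0.45 to 0.56 in the highest bin, while the DSS libraries spread from 0.21 to -0.62.

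The cells read as epithelium in both groups. Epcam, an epithelial adhesion molecule, was at 1396, 1669 and 1552 CPM at baseline and 1096, 1140.02 and 1293 CPM after DSS (log2 fold change -0.39, standard error 0.14, adjusted p = 0.0693). The groups did not overlap, and the difference did not pass the test, though it passed under some alternatives, DESeq2 and a replicate block among them. Cdh1, the adherens junction cadherin, was at 1351, 1579 and 1267 CPM and 1309, 1228 and 1399 CPM (log2 fold change -0.09, standard error 0.13, adjusted p = 0.617), with overlapping groups. The sign of its change turned without baseline DKO replicate 2 and without both 18S-rich libraries. Among 17 markers of epithelial identity 5 fell (29.4%, beside 11% of all genes) and 0 rose. The median log2 fold change of this list was -0.37. Krt18, a keratin of simple epithelia, fell from 609, 586 and 747 CPM to 361, 409 and 428 CPM (log2 fold change -0.70, standard error 0.13, adjusted p = 0.00292). Every DSS library lay below every baseline library, and the call was lost once GC content was taken out. With GC taken out, 1 of the 17 markers fell. The count of 5 became 8 without DSS DKO replicate 1, 2 without DSS DKO replicate 2 or baseline DKO replicate 2, 3 without DSS DKO replicate 3, and 1 without both 18S-rich libraries.

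Markers of immune cells were summed by list. Over 27 markers of T, natural killer and intraepithelial lymphocytes the summed CPM was 66.9, 59.2 and 76.7 at baseline and 133, 72.4 and 73.1 after DSS, and 3 members (11.1%, beside 12.6% of all genes) rose and 0 fell. The pan-leukocyte gene Ptprc was at 15.9, 12.4 and 13.7 CPM and 30.5, 17.2 and 14.4 CPM, with DSS DKO replicate 1 highest. Summed macrophage and dendritic cell genes were at 50.4, 40.1 and 39.05 and 85.7, 80.6 and 46.9 CPM, with 6 of 21 rising (28.6%, beside 12.6% of all genes) and 1 falling. Without both 18S-rich libraries 1 macrophage and dendritic cell gene rose. Adgre1, the F4/80 antigen of macrophages, rose from 0.774, 0.194 and 0.311 CPM to 1.65, 1.94 and 1.43 CPM (log2 fold change 2.01, standard error 0.46, adjusted p = 0.00943). B and plasma cell genes had 1 rise (6.25%) and 0 falls among 16 tested, and MHC class II genes 0 and 0 among 13. The B and plasma cell genes summed to 519, 534 and 608 CPM at baseline and 618, 571 and 578 CPM after DSS. Most of that was Xbp1, at 229, 243 and 301 CPM and 285, 259 and 308 CPM, and Sdc1, at 271, 279 and 293 CPM and 314, 278 and 252 CPM, both of which epithelium also expresses. The MHC class II genes summed to 246, 247 and 262 CPM and 247, 319.6 and 285 CPM. The groups overlapped in both sums. In bulk samples, fewer cells of a type and less RNA per cell cannot be told apart, which applies to every marker list below.

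Fibroblast and matrix genes were not even across replicates. Their summed level was 673, 579 and 270.1 CPM at baseline and 300.01, 382 and 523 CPM after DSS, so the groups overlapped, highest in baseline DKO replicate 1. Of 23 tested, 5 rose and 0 fell, and the count of 5 became 8 with GC taken out, 10 without DSS DKO replicate 1 and 1 without both 18S-rich libraries. The 5 called higher with all libraries were 21.7% of the list, beside 12.6% of all genes. Dcn, the matrix proteoglycan decorin, was at 5.57, 7.26 and 4.85 CPM and 12.6, 47.8 and 57.5 CPM (log2 fold change 2.74, standard error 0.49, adjusted p = 0.00423). It was higher in every DSS library, least in replicate 1, and lost its call without both 18S-rich libraries. Pdpn, podoplanin, a membrane glycoprotein of stromal and some epithelial cells, rose from 0.341, 0.242 and 0.155 CPM to 2.39, 2.94 and 3.49 CPM (log2 fold change 3.61, standard error 0.57, adjusted p = 0.00132). Vwf, the von Willebrand factor of endothelium, fell from 6.25, 6.27 and 5.26 CPM to 1.35, 1.28 and 1.27 CPM (log2 fold change -2.19, standard error 0.19, adjusted p = 2.54e-05). Of 18 smooth muscle, endothelial, glial and red cell genes, 2 fell (11.1%, beside 11% of all genes) and 0 rose. The part of these cells in the results below was not tested.

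Goblet cell genes fell after DSS. Among 22 tested, 15 fell and 0 rose, and the median log2 fold change was -0.89. Their summed level went from 37707, 39492 and 43979 CPM at baseline to 5592, 5928 and 6274 CPM after DSS. The count of falling genes was 12 with GC taken out and at least 13 with any library left out or with both 18S-rich libraries removed. The share falling stands against a background of 11%.

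Clca1, a metalloprotease that goblet cells secrete into mucus, was at 14378, 14432 and 18890.5 CPM at baseline and 269, 203 and 225 CPM after DSS. All 3 DSS libraries lay far below the baseline libraries and close to each other, a 68.3-fold lower level (log2 fold change -6.09, standard error 0.197, adjusted p = 4.91e-09). Muc2, the gel-forming mucin of the colon, was at 9481, 10651 and 9220.3 CPM and 1658, 1883 and 1411 CPM (log2 fold change -2.57, standard error 0.21, adjusted p = 1.80e-05). The groups were far apart, as the plot of values by library shows. Fcgbp, a mucus protein that binds Muc2, went from 8006, 9013 and 7417 CPM to 608, 263 and 119.6 CPM (log2 fold change -4.62, standard error 0.68, adjusted p = 0.00186). DSS DKO replicate 1 was highest and replicate 3 lowest of the DSS libraries, all far below the baseline. Zg16, a lectin that binds bacteria in mucus, was at 1053, 1141 and 1512 CPM and 481, 451 and 739 CPM (log2 fold change -1.15, standard error 0.21, adjusted p = 0.00289). Tff3, the trefoil peptide of goblet cells, was at 366, 350.1 and 537 CPM and 201, 240.2 and 274 CPM (log2 fold change -0.81, standard error 0.17, adjusted p = 0.00554). Both were lower in every DSS library than in any baseline library, by much less than Clca1. Capn9, a calpain of mucous cells, fell from 76.8, 67.8 and 88.4 CPM to 17.2, 18.1 and 16.01 CPM (log2 fold change -2.18, standard error 0.13, adjusted p = 1.67e-06). Bcas1 fell from 130.3, 146 and 142 CPM to 45.4, 55.9 and 50.5 CPM (log2 fold change -1.46, standard error 0.11, adjusted p = 1.07e-05). Atoh1, the transcription factor that specifies secretory cells, was at 84.6, 109 and 108 CPM and 73.5, 78.2 and 83.3 CPM (log2 fold change -0.36, standard error 0.14, adjusted p = 0.0741), which did not pass the test although the groups did not overlap. Without baseline DKO replicate 1 it passed. Itln1, an intestinal lectin, fell from 44.9, 30.9 and 72.7 CPM to 2.74, 0.952 and 1.84 CPM (log2 fold change -4.74, standard error 0.55, adjusted p = 0.000606), and Sycn, syncollin, a protein of secretory granules, from 245, 241 and 291 CPM to 16.8, 12.96 and 16.9 CPM (log2 fold change -4.06, standard error 0.24, adjusted p = 2.82e-06).

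Deep crypt secretory cells, which neighbour the stem cells of the colon, included Mptx1 and Ang4, the top of the falling genes named by size of change. Of 12 genes tested, 8 fell, 0 rose and 4 did not pass, with a median of -1.53. The list shares Retnlb, Spink4 and Agr2 with the goblet cell list. Mptx1, a mucosal pentraxin, lies on chromosome 1 (GRCm38, 174330518 to 174332873). It was at 2908, 2719 and 4993 CPM at baseline and 5.42, 5.53 and 2.97 CPM after DSS, a 760.5-fold fall (log2 fold change -9.57, standard error 0.44, adjusted p = 1.53e-06). Ang4, an angiogenin with activity against bacteria, on chromosome 14 (51763878 to 51773590), was at 709.7, 535 and 1429 CPM and 4.98, 6.46 and 4.63 CPM (log2 fold change -7.38, standard error 0.40, adjusted p = 5.67e-06). In both genes the DSS libraries were within 3 CPM of each other, and baseline DKO replicate 3 was highest. Reg4, a lectin-like marker of these cells, fell from 401, 279.7 and 587 CPM to 68.3, 40.4 and 28.3 CPM (log2 fold change -3.21, standard error 0.35, adjusted p = 0.000404). Retnlb, which has activity against Gram-negative bacteria, fell from 440.5, 304 and 858 CPM to 92.4, 76.6 and 141 CPM (log2 fold change -2.37, standard error 0.39, adjusted p = 0.00313), and Spink4, a protease inhibitor of secretory cells, from 243, 181.2 and 557 CPM to 82.1, 72.4 and 88.9 CPM (log2 fold change -2.01, standard error 0.36, adjusted p = 0.00441). Baseline replicate 3 was again highest in all 3 genes, and the groups did not overlap. Kit, the receptor that marks these cells and mast cells, was at 131, 144 and 138 CPM and 61.7, 101 and 95.1 CPM (log2 fold change -0.68, standard error 0.155, adjusted p = 0.00853), a fall that lost its call without both 18S-rich libraries.

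Tuft cell genes fell as a group. Of 18 tested, 12 fell and 1 rose, with a median of -1.90, and at least 9 fell under each alternative that removed libraries. The member that rose was Alox5ap, which presents arachidonate for leukotriene synthesis, and its call was lost in the 6 DKO libraries alone, without any of baseline DKO replicates 1 or 2 or DSS DKO replicates 2 or 3, and without both 18S-rich libraries. Dclk1, a kinase that marks tuft cells, was at 8.45, 11.6 and 10.02 CPM at baseline and 2.18, 1.52 and 2.18 CPM after DSS (log2 fold change -2.36, standard error 0.26, adjusted p = 0.00016). Trpm5, the cation channel of their taste-like signalling, was at 13.7, 14.5 and 14.5 CPM and 4.14, 2.07 and 1.41 CPM (log2 fold change -2.48, standard error 0.39, adjusted p = 0.00155). Pou2f3, the transcription factor on which tuft cells depend, was at 2.32, 2.88 and 1.96 CPM and 0.352, 0.0810 and 0.0680 CPM (log2 fold change -3.77, standard error 0.49, adjusted p = 0.000419). Every DSS library lay below every baseline library in all 3 genes, with DSS DKO replicate 1 the least reduced in Trpm5 and Pou2f3. Sh2d6 fell from 8.20, 13.2 and 8.83 CPM to 1.70, 1.34 and 1.90 CPM (log2 fold change -2.61, standard error 0.26, adjusted p = 8.34e-05), and Avil, the actin-binding protein advillin, from 9.60, 9.08 and 10.3 CPM to 2.96, 1.66 and 1.72 CPM (log2 fold change -2.19, standard error 0.26, adjusted p = 0.000267). Alox5, the enzyme that starts leukotriene synthesis, fell from 6.22, 5.59 and 5.17 CPM to 0.870, 1.56 and 1.79 CPM (log2 fold change -2.01, standard error 0.29, adjusted p = 0.000825).

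Enteroendocrine genes went the other way. Of 22 tested, 12 rose, 1 fell and 9 did not pass, with a median of 0.84, and the count rising was 7 without baseline DKO replicate 2 and 1 without both 18S-rich libraries. Cpe, which trims hormone precursors, rose from 13.3, 9.98 and 11.1 CPM to 27.1, 34.05 and 27.4 CPM (log2 fold change 1.37, standard error 0.153, adjusted p = 0.000171). Gcg, the precursor of glucagon-like peptides, rose from 36.9, 28.2 and 43.4 CPM to 76.2, 125 and 181.3 CPM (log2 fold change 1.82, standard error 0.28, adjusted p = 0.00158), and Tph1, which makes serotonin in the gut, from 18.5, 17.7 and 18.6 CPM to 29.3, 54.2 and 70.7 CPM (log2 fold change 1.49, standard error 0.25, adjusted p = 0.00211). DSS DKO replicate 1 was the lowest DSS library for Gcg and Tph1, and both calls were lost without both 18S-rich libraries. The member that fell was Insl5, a peptide hormone of distal colonic L cells, from 19.9, 15.4 and 26.5 CPM to 11.7, 10.2 and 7.89 CPM (log2 fold change -1.05, standard error 0.22, adjusted p = 0.00602).

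**Figure D3:**
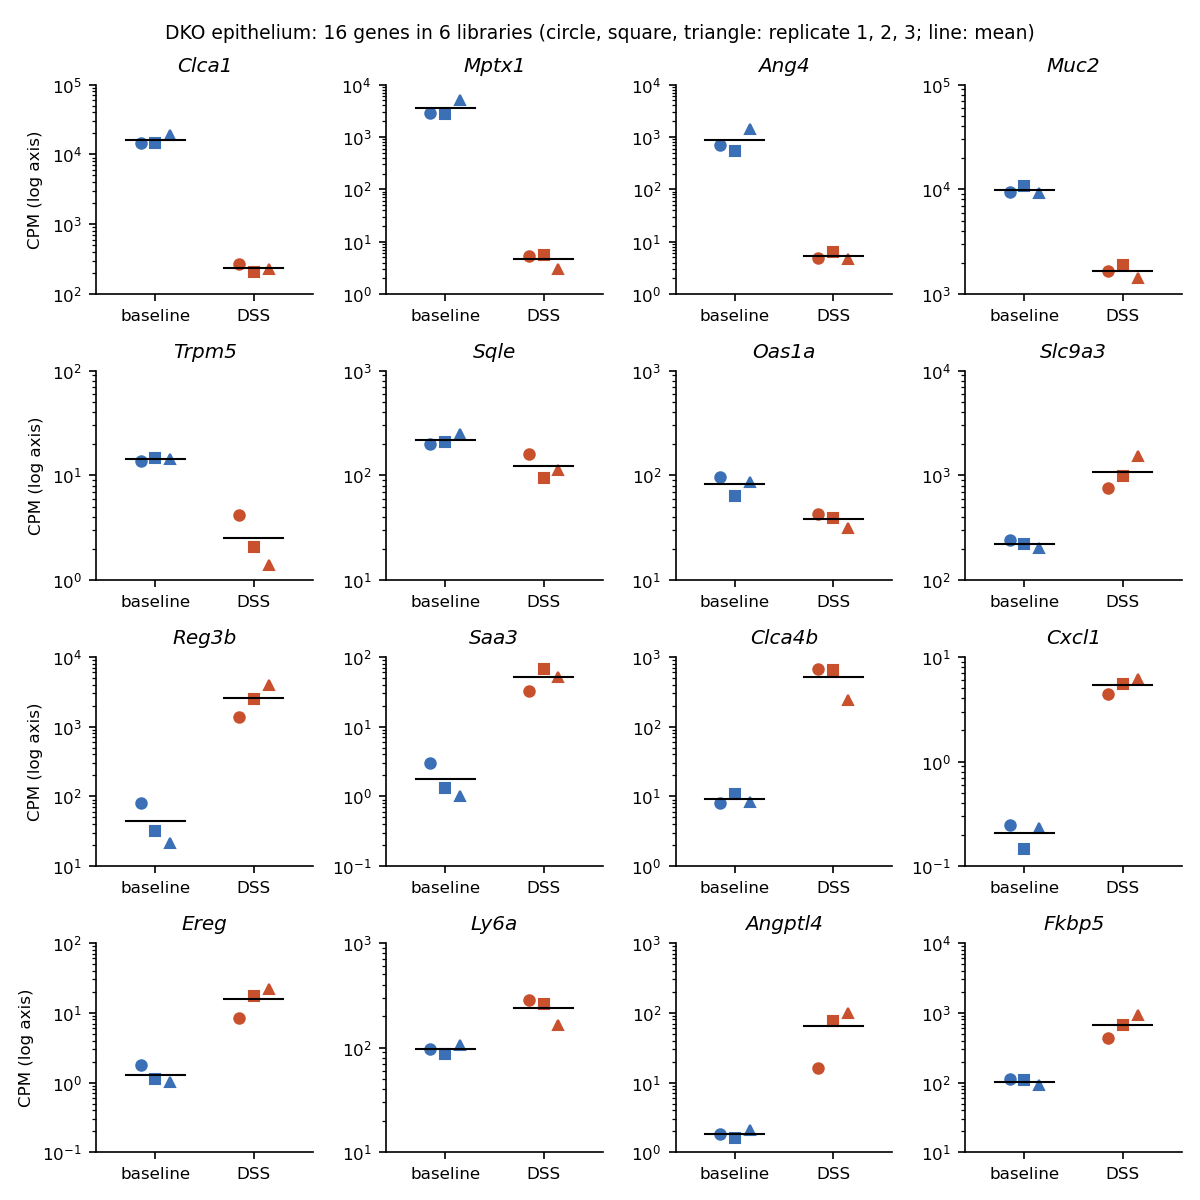
CPM on a log axis, in each of the 3 baseline and 3 DSS libraries of DKO epithelium, for 16 genes of the secretory, tuft, sterol, interferon, transport, defence, chemokine, repair, PPAR and glucocorticoid lists. Circles, squares and triangles are replicates 1, 2 and 3, and the line is the mean. In each panel the groups do not overlap, and Clca1, Mptx1 and Ang4 are the most separated of the falling genes shown.

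Many stem cell genes fell, while their summed level overlapped between the groups, at 1071, 1179 and 1085 CPM at baseline and 1109, 1048 and 1180.4 CPM after DSS. Of 20 crypt stem cell genes tested, 12 fell, 2 rose and 6 did not pass, with a median of -0.99. The count falling was 5 without DSS DKO replicate 2, 6 without baseline DKO replicate 2, 7 without baseline DKO replicate 3 and 3 without both 18S-rich libraries. Lgr5, a receptor that marks cycling stem cells, was at 13.9, 15.6 and 13.01 CPM and 7.22, 3.65 and 2.72 CPM (log2 fold change -1.64, standard error 0.28, adjusted p = 0.00221). Sox9, a transcription factor of crypt base cells, was at 55.6, 68.4 and 62.2 CPM and 33.2, 22.4 and 12.4 CPM (log2 fold change -1.45, standard error 0.29, adjusted p = 0.00638). The DSS libraries were all lower and fell further apart than the baseline ones, replicate 1 being highest, and both genes lost their call without both 18S-rich libraries. Smoc2, a matrix protein of stem cells, fell from 23.4, 28.5 and 26.7 CPM to 17.00, 10.5 and 11.04 CPM (log2 fold change -1.03, standard error 0.17, adjusted p = 0.00193), and Rgmb, a co-receptor of bone morphogenetic proteins, from 63.9, 103 and 83.8 CPM to 36.2, 23.8 and 20.5 CPM (log2 fold change -1.64, standard error 0.23, adjusted p = 0.000777). The members that rose were Bmi1, a Polycomb protein, from 13.7, 12.1 and 15.2 CPM to 25.4, 27.1 and 29.98 CPM (log2 fold change 1.004, standard error 0.14, adjusted p = 0.000601), and Prom1, a membrane protein of protrusions, from 343, 300.3 and 307 CPM to 525, 684 and 861 CPM (log2 fold change 1.12, standard error 0.18, adjusted p = 0.00152), the latter not called without both 18S-rich libraries.

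Among 33 cell cycle genes, 10 fell, 1 rose and 22 did not pass, with a median of -0.41. Plk1, a mitotic kinase, fell from 157, 174 and 162 CPM to 85.7, 82.6 and 54.5 CPM (log2 fold change -1.14, standard error 0.19, adjusted p = 0.0019), with DSS DKO replicate 3 lowest. Mki67, the proliferation antigen Ki-67, was at 291, 222 and 234 CPM and 165, 133 and 53.2 CPM (log2 fold change -1.09, standard error 0.44, adjusted p = 0.103), without overlap and without passing the test. Under some alternatives it passed, DESeq2 and leaving out DSS DKO replicate 1 among them. Over all autosomal genes, the 2036 called lower became 2946 without DSS DKO replicate 1 and 1180 to 1700 without another DKO library. The count of falling cell cycle genes also changed with each DKO library left out. It was 23 without DSS DKO replicate 1, 4 without DSS DKO replicate 2, DSS DKO replicate 3 or baseline DKO replicate 2, 2 without baseline DKO replicate 1 and 3 without baseline DKO replicate 3, and 1 without both 18S-rich libraries.

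Of 28 Wnt and Notch genes, 5 rose (17.9%, beside 12.6% of all genes) and 8 fell (28.6%, beside 11%), with a median of -0.48. Their summed level overlapped between the groups, at 1540.4, 1569 and 1420.4 CPM and 1721, 1562 and 1603 CPM. Tcf7l2, the Wnt-responsive transcription factor of the crypt, fell from 72.7, 93.7 and 62.5 CPM to 31.9, 23.8 and 18.4 CPM (log2 fold change -1.63, standard error 0.195, adjusted p = 0.000267). Axin2, a Wnt feedback gene, was at 38.9, 53.6 and 44.99 CPM and 21.7, 5.19 and 2.95 CPM (log2 fold change -2.20, standard error 0.66, adjusted p = 0.0393). DSS DKO replicate 1 lay much nearer the baseline than replicates 2 and 3, and the call was lost with any of baseline DKO replicates 1, 2 or 3, DSS DKO replicate 2, or either baseline WT library left out, in the 6 DKO libraries alone and without both 18S-rich libraries. The count falling was 13 without DSS DKO replicate 1, 4 without DSS DKO replicate 2 or baseline DKO replicate 2, 5 without DSS DKO replicate 3 or baseline DKO replicate 3, and 3 without both 18S-rich libraries. The count rising was 2 without DSS DKO replicate 3, 3 without baseline DKO replicate 2 and 0 without both 18S-rich libraries.

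Genes of the fetal-like repair state of the injured gut, many of them targets of the co-activator YAP, rose. Of 26 tested, 14 rose, 0 fell and 12 did not pass, with a median of 1.06, against a background of 12.6% rising. Between 11 and 14 rose when libraries were left out, both 18S-rich ones included. Ly6c1, a surface antigen of the Ly6 family, was at 1.46, 2.18 and 2.08 CPM at baseline and 59.02, 53.4 and 30.9 CPM after DSS (log2 fold change 4.64, standard error 0.31, adjusted p = 6.36e-06). Ly6a, or Sca-1, the family member that marks the repairing epithelium, was at 97.7, 86.99 and 106 CPM and 283, 261 and 165 CPM (log2 fold change 1.29, standard error 0.17, adjusted p = 0.000506). Plaur, the urokinase receptor, was at 6.66, 6.13 and 7.51 CPM and 28.3, 26.7 and 19.8 CPM (log2 fold change 1.88, standard error 0.205, adjusted p = 0.000144). In all 3 genes the DSS libraries were above every baseline library, and DSS DKO replicate 3 rose least. Anxa1, annexin A1, rose from 93.9, 94.9 and 118 CPM to 231, 234 and 183 CPM (log2 fold change 1.08, standard error 0.14, adjusted p = 0.000521), and Ccn1, a matricellular YAP target, from 12.9, 10.2 and 22.6 CPM to 99.5, 121 and 60.2 CPM (log2 fold change 2.62, standard error 0.36, adjusted p = 0.00122).

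Growth factors of the EGF family rose with them. Of 15 ligands and receptors tested, 7 rose and 1 fell, and 4 rose without both 18S-rich libraries. The 7 called higher with all libraries were 46.7% of the list, beside 12.6% of all genes. Ereg, epiregulin, was at 1.76, 1.11 and 1.01 CPM at baseline and 8.34, 17.6 and 21.97 CPM after DSS (log2 fold change 3.64, standard error 0.39, adjusted p = 0.00016). Hbegf was at 76.2, 105 and 108 CPM and 383, 353 and 197 CPM (log2 fold change 1.69, standard error 0.22, adjusted p = 0.000527), and Areg, amphiregulin, at 17.3, 27.1 and 28.6 CPM and 93.1, 80.7 and 57.99 CPM (log2 fold change 1.67, standard error 0.22, adjusted p = 0.000566). DSS DKO replicate 3 was the highest of the DSS libraries for Ereg and the lowest for Hbegf and Areg, and no DSS library overlapped the baseline ones. Errfi1, an inhibitor of the EGF receptor that its signalling induces, rose from 66.1, 88.6 and 98.2 CPM to 231, 215 and 194 CPM (log2 fold change 1.34, standard error 0.16, adjusted p = 0.000248). The receptor Egfr itself was at 46.1, 46.9 and 46.1 CPM and 52.1, 51.97 and 56.6 CPM (log2 fold change 0.21, standard error 0.12, adjusted p = 0.216), and its sign turned with GC taken out.

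Matrix remodelling genes rose, and many differed widely between the DSS libraries. Of 29 matrix remodelling genes tested, 17 rose and 1 fell, with a median of 1.88, and 6 rose without both 18S-rich libraries. Plat, tissue plasminogen activator, was at 0.341, 0.145 and 0.272 CPM and 12.3, 42.5 and 18.1 CPM, 96.6-fold higher (log2 fold change 6.59, standard error 0.69, adjusted p = 0.000281). Mmp10, stromelysin 2, was at 0.248, 0 and 0 CPM and 1.91, 24.7 and 56.2 CPM (log2 fold change 8.65, standard error 1.49, adjusted p = 0.00385). Mmp3, stromelysin 1, was at 0, 0.0968 and 0 CPM and 0.407, 6.85 and 12.5 CPM (log2 fold change 7.56, standard error 1.45, adjusted p = 0.0063). Both stromelysins were much higher in DSS DKO replicates 2 and 3 than in replicate 1, which still lay above the baseline, and both lost their call with limma's voom and without both 18S-rich libraries. Mmp19 rose from 0.186, 0.339 and 0.175 CPM to 2.35, 5.02 and 9.25 CPM (log2 fold change 4.55, standard error 0.56, adjusted p = 0.00034), in the same order of replicates. Serpina3n, a serine protease inhibitor, rose from 0, 0.0968 and 0.0777 CPM to 1.31, 4.395 and 2.77 CPM (log2 fold change 5.43, standard error 0.76, adjusted p = 0.000704).

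Epithelial defence genes that interleukin-22 induces through STAT3 rose. Of 24 tested, 12 rose, 0 fell and 12 did not pass, with a median of 1.37, and 5 rose without both 18S-rich libraries. Their summed level was 16427, 12944 and 13600.4 CPM at baseline and 25343, 30032 and 32433 CPM after DSS. Reg3b, a bactericidal lectin, was at 80.7, 31.8 and 21.3 CPM and 1385, 2513 and 3911 CPM, 58.5-fold higher (log2 fold change 5.87, standard error 0.59, adjusted p = 0.000314). Its relative Reg3g, which kills Gram-positive bacteria, was at 25.9, 10.02 and 12.5 CPM and 272, 337 and 202 CPM (log2 fold change 4.07, standard error 0.36, adjusted p = 0.000127). Baseline DKO replicate 1 was the highest baseline library for both, still far below every DSS library. Saa3, a serum amyloid A protein, rose from 2.97, 1.31 and 1.01 CPM to 32.1, 67.6 and 51.9 CPM (log2 fold change 4.87, standard error 0.55, adjusted p = 0.000491), and Lcn2, which withholds iron from bacteria, from 2.11, 1.11 and 2.33 CPM to 9.68, 20.6 and 16.2 CPM (log2 fold change 3.06, standard error 0.33, adjusted p = 0.000133). Dmbt1, a scavenger receptor secreted into mucus, carried most of the list's RNA and rose from 9309.6, 7631 and 7220.4 CPM to 17166, 20194 and 22544 CPM (log2 fold change 1.31, standard error 0.152, adjusted p = 0.000216). Slpi, an inhibitor of neutrophil elastase, rose from 0.898, 0.847 and 1.51 CPM to 26.8, 23.9 and 10.2 CPM (log2 fold change 4.20, standard error 0.40, adjusted p = 7.98e-05).

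Chemokines and cytokines of the NF-kB response rose from near absence. Of 30 TNF and NF-kB genes tested, 14 rose, 2 fell and 14 did not pass, with a median of 0.997, and 6 rose without both 18S-rich libraries. Their summed level overlapped between the groups, at 853, 933 and 849 CPM and 1077, 1058 and 926 CPM. Cxcl1, a neutrophil attractant, was at 0.248, 0.145 and 0.233 CPM at baseline and 4.42, 5.55 and 6.17 CPM after DSS (log2 fold change 4.68, standard error 0.40, adjusted p = 2.74e-05). Cxcl2 was at 0.124, 0.0968 and 0.117 CPM and 14.4, 12.8 and 9.96 CPM (log2 fold change 6.76, standard error 0.69, adjusted p = 0.000193), and Cxcl3 at 0.124, 0.0968 and 0 CPM and 3.09, 3.97 and 2.29 CPM (log2 fold change 5.51, standard error 0.68, adjusted p = 0.000344). All 3 chemokines act on the receptor CXCR2, and in each the lowest DSS library was over 10 times the highest baseline library. Il1b, interleukin-1β, rose from 0.310, 0.291 and 0.194 CPM to 12.6, 7.35 and 8.48 CPM (log2 fold change 5.18, standard error 0.40, adjusted p = 1.28e-05). Ptgs2, the inducible cyclooxygenase, rose from 0.155, 0.291 and 0.0583 CPM to 7.38, 18.1 and 37.7 CPM (log2 fold change 6.997, standard error 0.87, adjusted p = 0.000871), highest in DSS DKO replicate 3. Inhibitors of the pathway also rose. Tnfaip3, or A20, went from 46.8, 52.03 and 42.9 CPM to 138, 128 and 89.9 CPM (log2 fold change 1.33, standard error 0.16, adjusted p = 0.000246), and Nfkbia, the inhibitor IκBα, from 74.2, 77.7 and 78.8 CPM to 126, 157 and 119 CPM (log2 fold change 0.80, standard error 0.12, adjusted p = 0.00105), the latter not called without both 18S-rich libraries.

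The promoters of the 3 chemokine genes are shown because the genes sit in a cluster on chromosome 5 and rose together. Each runs from 250 bases before to 50 after the RefSeq start on the plus strand of GRCm38.p6. The positions are chr5:90890995-90891294 for Cxcl1, chr5:90903649-90903948 for Cxcl2 and chr5:90785851-90786150 for Cxcl3. Capitals mark the letters GGGNNTTTC on either strand, the core of an NF-kB site.
Cxcl1: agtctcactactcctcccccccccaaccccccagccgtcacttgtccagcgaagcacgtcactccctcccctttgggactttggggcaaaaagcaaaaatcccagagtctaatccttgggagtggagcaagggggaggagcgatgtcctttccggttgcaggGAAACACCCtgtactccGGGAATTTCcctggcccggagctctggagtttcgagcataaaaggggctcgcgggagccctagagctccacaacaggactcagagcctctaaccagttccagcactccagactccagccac
Cxcl2: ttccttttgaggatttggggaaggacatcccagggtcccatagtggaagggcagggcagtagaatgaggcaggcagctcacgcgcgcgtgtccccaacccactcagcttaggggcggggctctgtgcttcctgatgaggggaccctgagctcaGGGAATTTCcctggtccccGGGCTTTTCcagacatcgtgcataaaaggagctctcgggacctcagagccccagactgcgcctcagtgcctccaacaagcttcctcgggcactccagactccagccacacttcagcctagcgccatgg
Cxcl3: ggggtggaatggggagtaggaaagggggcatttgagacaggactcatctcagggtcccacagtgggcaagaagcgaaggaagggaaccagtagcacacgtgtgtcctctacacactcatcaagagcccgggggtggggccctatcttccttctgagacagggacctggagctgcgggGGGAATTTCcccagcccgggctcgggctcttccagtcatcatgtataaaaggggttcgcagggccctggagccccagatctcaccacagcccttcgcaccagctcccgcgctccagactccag
The motif was found 2 times in the Cxcl1 and Cxcl2 promoters and 1 time in that of Cxcl3. It occurs in 1206 (4.46%) of 27025 RefSeq promoters of the same length, and in 9 of the 23 promoters found for the 30 members of the list, among them Nfkbia, Tnfaip3 and Ccl20. A match is a description of letters and shows no binding.

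Type I interferon response genes fell. Of 32 type I interferon genes tested, 19 fell, 0 rose and 13 did not pass, with a median of -1.12. Their summed level was 1780.1, 1063 and 1188 CPM at baseline and 806, 679 and 555 CPM after DSS. The count falling was 12 without DSS DKO replicate 2 and 4 without both 18S-rich libraries, and 21 with GC taken out. Oas1a, an oligoadenylate synthetase that senses double-stranded RNA, was at 95.6, 63.6 and 86.7 CPM at baseline and 42.8, 39.4 and 31.7 CPM after DSS (log2 fold change -1.11, standard error 0.18, adjusted p = 0.00169). Its neighbour Oas1g was at 41.8, 34.2 and 39.01 CPM and 17.8, 14.3 and 12.2 CPM (log2 fold change -1.37, standard error 0.18, adjusted p = 0.000419). The paralogs share sequence, so reads split between them are uncertain. Irf9, the DNA-binding part of the interferon-stimulated complex, was at 71.7, 63.5 and 67.5 CPM and 42.2, 41.1 and 35.5 CPM (log2 fold change -0.77, standard error 0.12, adjusted p = 0.00133), and Rtp4 at 39.5, 18.5 and 27.1 CPM and 12.5, 10.8 and 8.64 CPM (log2 fold change -1.41, standard error 0.28, adjusted p = 0.00473). The groups did not overlap in any of the 4, and the highest baseline library was replicate 1 in each. Isg15, a ubiquitin-like protein, fell from 23.8, 8.91 and 13.5 CPM to 5.70, 3.10 and 2.72 CPM (log2 fold change -1.996, standard error 0.46, adjusted p = 0.0128). That call did not hold without DSS DKO replicate 2 or without both 18S-rich libraries. Ifit1, an RNA sensor, was at 44.9, 17.5 and 21.9 CPM and 14.1, 7.60 and 3.97 CPM (log2 fold change -1.71, standard error 0.58, adjusted p = 0.0609), which did not pass. It passed under some alternatives, DESeq2, voom and GC taken out among them, and not under others.

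The promoters of Oas1a and Oas1g are shown because both genes fell and the letters of the interferon-stimulated element lie just before the start in both. They lie on the minus strand of GRCm38.p6, at chr5:120907476-120907775 for Oas1a and chr5:120887564-120887863 for Oas1g. Capitals mark GAAANNGAA on either strand, in 2 overlapping copies. The first begins 20 bases before the start in Oas1a and 18 before it in Oas1g.
Oas1a: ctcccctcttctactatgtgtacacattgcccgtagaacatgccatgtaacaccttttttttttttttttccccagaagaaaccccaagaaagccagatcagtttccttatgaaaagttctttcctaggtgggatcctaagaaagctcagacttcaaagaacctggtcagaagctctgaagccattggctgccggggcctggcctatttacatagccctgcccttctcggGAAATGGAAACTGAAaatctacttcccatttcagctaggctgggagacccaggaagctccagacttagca
Oas1g: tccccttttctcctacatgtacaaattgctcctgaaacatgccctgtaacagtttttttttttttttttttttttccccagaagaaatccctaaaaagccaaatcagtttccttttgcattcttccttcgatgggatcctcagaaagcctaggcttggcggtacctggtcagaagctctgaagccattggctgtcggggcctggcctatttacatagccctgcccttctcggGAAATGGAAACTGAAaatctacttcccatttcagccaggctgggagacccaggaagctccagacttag
This motif occurs in 2317 (8.57%) of the 27025 promoters and in 14 of the 23 promoters found for the 32 list members, Isg15, Ifit1, Rsad2 and Stat2 among them. The list was chosen for its response to interferon, so this share says nothing about DSS. Here too a match shows no binding, and its part in the fall was not tested.

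Of 31 interferon-gamma response genes tested, 10 fell, 1 rose and 20 did not pass, with a median of -0.45. Without DSS DKO replicate 2 the count was 2, without baseline DKO replicate 1 6, without baseline DKO replicate 2 5, and without both 18S-rich libraries 2. Irgm2, an immunity-related GTPase, fell from 54.5, 46.8 and 44.6 CPM to 26.98, 21.8 and 25.6 CPM (log2 fold change -0.97, standard error 0.13, adjusted p = 0.000521). Gbp8, a guanylate-binding protein, was the member that rose, from 3.56, 2.81 and 2.12 CPM to 5.72, 9.01 and 8.19 CPM (log2 fold change 1.44, standard error 0.24, adjusted p = 0.0018). Of 24 MHC class I and peptide loading genes, 2 rose (8.33%, beside 12.6% of all genes) and 3 fell (12.5%, beside 11%). H2-Q10, a secreted class I molecule, fell from 14.98, 13.03 and 13.9 CPM to 2.85, 1.38 and 2.81 CPM (log2 fold change -2.57, standard error 0.28, adjusted p = 0.000134), while H2-T3, the thymus leukaemia antigen of gut epithelium, rose from 58.8, 43.9 and 43.1 CPM to 81.9, 113 and 116 CPM (log2 fold change 1.09, standard error 0.16, adjusted p = 0.000709).

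Neutrophil markers rose from very low levels. Of 25 tested, 17 rose, 1 fell and 7 did not pass, with a median of 2.77, and 9 rose without both 18S-rich libraries. Trem1, a receptor that amplifies neutrophil activation, was at 0.155, 0.0968 and 0.0583 CPM and 4.70, 4.68 and 4.33 CPM (log2 fold change 5.51, standard error 0.69, adjusted p = 0.000457). Clec4e was at 0.433, 0.0968 and 0.136 CPM and 6.20, 4.80 and 4.17 CPM (log2 fold change 4.59, standard error 0.62, adjusted p = 0.000726). Mmp8, neutrophil collagenase, was at 1.39, 0.581 and 0.602 CPM and 5.199, 10.5 and 7.37 CPM (log2 fold change 3.19, standard error 0.37, adjusted p = 0.000232). Each was above the baseline range in every DSS library, at a level of a few CPM. S100a8, a subunit of calprotectin that epithelium also makes, rose from 8.73, 3.51 and 4.72 CPM to 16.9, 28.5 and 21.8 CPM (log2 fold change 1.99, standard error 0.30, adjusted p = 0.00118), and S100a9 from 10.03, 4.75 and 6.25 CPM to 15.6, 27.5 and 20.4 CPM (log2 fold change 1.598, standard error 0.27, adjusted p = 0.00206). Ly6g, the antigen by which mouse neutrophils are sorted, was already at 18.2, 21.3 and 18.2 CPM at baseline and rose to 113, 144 and 135 CPM (log2 fold change 2.77, standard error 0.17, adjusted p = 3.31e-06). The member that fell was Cd177, a neutrophil glycoprotein, from 505, 502 and 727 CPM to 283, 204 and 228 CPM (log2 fold change -1.28, standard error 0.18, adjusted p = 0.00072). At baseline Cd177 and Ly6g lay far above Trem1, Clec4e and Mmp8, and which cells their RNA came from was not tested. The list's summed level was 596, 566 and 785 CPM at baseline, most of it Cd177, and 496, 495 and 477 CPM after DSS, so the sum was lower while most members rose.

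Absorptive colonocytes changed in both directions. Of 24 ion and water transport genes tested, 4 rose and 10 fell, with a median of -0.77, and 4 fell without both 18S-rich libraries. Their summed level overlapped, at 17349.5, 16398 and 14629.9 CPM and 14286, 14809 and 19523 CPM. Slc9a3, the sodium-hydrogen exchanger of the brush border, was at 244, 224 and 202 CPM at baseline and 751, 985 and 1529 CPM after DSS (log2 fold change 2.29, standard error 0.23, adjusted p = 9.46e-05). Every DSS library was over 3 times the highest baseline library. Slc5a8, which takes up short-chain fatty acids with sodium, was at 375, 358 and 331 CPM and 206, 166 and 211 CPM (log2 fold change -0.87, standard error 0.11, adjusted p = 0.0005). Slc26a3, the chloride-bicarbonate exchanger, was at 709, 880.3 and 640.2 CPM and 388, 369.8 and 467 CPM (log2 fold change -0.86, standard error 0.16, adjusted p = 0.0031), and lost its call without both 18S-rich libraries. Scnn1a, the α subunit of the epithelial sodium channel, fell from 128, 152 and 132 CPM to 40.4, 24.9 and 15.7 CPM (log2 fold change -2.34, standard error 0.43, adjusted p = 0.00508), a call likewise lost there. Aqp8, a water channel of surface colonocytes, fell from 299, 298 and 273 CPM to 59.4, 48.4 and 33.2 CPM (log2 fold change -2.62, standard error 0.30, adjusted p = 0.000419). The phosphate carriers Slc34a2 and Slc20a1 both fell, Slc34a2 from 19.8, 21.7 and 21.3 CPM to 5.22, 3.95 and 5.13 CPM (log2 fold change -2.13, standard error 0.201, adjusted p = 5.55e-05) and Slc20a1 from 372, 387 and 285 CPM to 175, 189 and 193 CPM (log2 fold change -0.91, standard error 0.13, adjusted p = 0.000611). Car1, an abundant carbonic anhydrase of colonocytes, was at 5363, 4088 and 3956 CPM and 3111, 3563 and 4847 CPM, with overlapping groups (log2 fold change -0.22, standard error 0.25, adjusted p = 0.547).

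Among 22 brush border and surface genes, 7 rose and 5 fell, with a median of 0.30. Clca4b, a relative of Clca1 expressed by surface cells, was at 8.02, 10.97 and 8.41 CPM and 659, 637 and 239 CPM (log2 fold change 5.81, standard error 0.50, adjusted p = 0.000133), and Clca4a at 60.2, 49.7 and 63.9 CPM and 163, 185 and 143 CPM (log2 fold change 1.5003, standard error 0.18, adjusted p = 0.00026). Both rose in every DSS library, Clca4b 55.97-fold and Clca4a 2.83-fold, while Clca1 fell. Tmigd1, an adhesion molecule of the brush border, rose from 46.5, 33.9 and 41.9 CPM to 85.4, 123 and 136 CPM (log2 fold change 1.49, standard error 0.204, adjusted p = 0.000612), and Guca2b, the hormone uroguanylin, from 11.3, 7.63 and 19.9 CPM to 37.3, 57.2 and 52.9 CPM (log2 fold change 1.92, standard error 0.30, adjusted p = 0.00173). Muc3, a membrane mucin, fell from 4297, 6212 and 3896 CPM to 2079.9, 1927 and 1627 CPM (log2 fold change -1.35, standard error 0.18, adjusted p = 0.000563). The count falling was 3 with GC taken out, 3 without any of baseline DKO replicates 1 or 2, DSS DKO replicates 2 or 3, or DSS WT replicate 3, and 1 without both 18S-rich libraries. Of 23 tight junction and keratin genes, 5 rose (21.7%) and 4 fell (17.4%). Cldn4, a sealing claudin, rose from 24.2, 27.9 and 24.9 CPM to 56.5, 66.3 and 59.5 CPM (log2 fold change 1.24, standard error 0.13, adjusted p = 0.000141). The count rising was 8 without DSS DKO replicate 1, 3 without baseline DKO replicate 2 and 1 without both 18S-rich libraries.

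Bile acid and nutrient carriers rose more often than they fell. Of 25 tested, 10 rose and 2 fell, and 5 rose without both 18S-rich libraries. Slc10a2, the sodium-dependent bile acid transporter, was at 25.3, 14.1 and 16.1 CPM at baseline and 116, 164 and 223 CPM after DSS (log2 fold change 3.18, standard error 0.30, adjusted p = 0.000133). Nr1h4, the bile acid receptor FXR, was at 109, 84.5 and 97.05 CPM and 246, 357 and 478 CPM (log2 fold change 1.89, standard error 0.22, adjusted p = 0.000234), and Slc51a, a subunit of the basolateral bile acid exporter, at 41.1, 32.4 and 32.2 CPM and 80.97, 132 and 132 CPM (log2 fold change 1.71, standard error 0.202, adjusted p = 0.000265). All 3 were higher in every DSS library, least in DSS DKO replicate 1. Slc3a1 and Slc7a9, the 2 chains of a cystine carrier, rose to 39.2, 41.7 and 40.6 CPM from 21.9, 20.1 and 18.4 CPM (log2 fold change 1.01, standard error 0.12, adjusted p = 0.000216) and to 13.01, 11.7 and 11.8 CPM from 3.41, 3.83 and 3.81 CPM (log2 fold change 1.73, standard error 0.18, adjusted p = 0.00012). Slc15a1, the peptide transporter, fell from 45.1, 50.6 and 39.3 CPM to 14.7, 9.24 and 7.26 CPM (log2 fold change -2.11, standard error 0.22, adjusted p = 9.80e-05).

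Steroid-responsive genes rose. Of 20 glucocorticoid and mineralocorticoid genes tested, 12 rose and 2 fell, with a median of 0.83, and 7 rose without both 18S-rich libraries. Fkbp5, a chaperone of the glucocorticoid receptor, was at 111, 107 and 92.1 CPM and 438, 669.8 and 920.1 CPM (log2 fold change 2.71, standard error 0.22, adjusted p = 2.54e-05). Sgk1, a kinase that raises sodium transport, was at 88.8, 144 and 116 CPM and 292, 431 and 633 CPM (log2 fold change 1.96, standard error 0.26, adjusted p = 0.000673). Both rose least in DSS DKO replicate 1 and most in replicate 3, with no overlap between groups. The receptor Nr3c1 rose from 114, 94.6 and 87.7 CPM to 176, 171 and 184 CPM (log2 fold change 0.84, standard error 0.11, adjusted p = 0.000584), evenly across the DSS libraries. Dusp1, a phosphatase of MAP kinases, rose from 108, 119.8 and 194 CPM to 493, 438 and 335 CPM (log2 fold change 1.58, standard error 0.22, adjusted p = 0.000726). Zbtb16, a transcription factor that glucocorticoids induce, rose from 2.29, 3.20 and 2.76 CPM to 10.3, 34.9 and 45.7 CPM (log2 fold change 3.46, standard error 0.57, adjusted p = 0.00287), a call lost without both 18S-rich libraries.

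Of the lipid metabolism genes called, most of those for breakdown rose and all of those for synthesis fell. Of 32 fatty acid oxidation, ketogenesis and PPAR target genes, 17 rose and 2 fell, with a median of 0.49. Ppara, the nuclear receptor of fatty acid oxidation, rose from 20.4, 10.6 and 14.2 CPM to 38.3, 50.6 and 56.4 CPM (log2 fold change 1.69, standard error 0.26, adjusted p = 0.00152). Angptl4, a PPAR target that inhibits lipoprotein lipase, was at 1.83, 1.598 and 2.10 CPM and 16.2, 76.9 and 98.1 CPM (log2 fold change 5.11, standard error 0.69, adjusted p = 0.0013). Pdk4, which diverts pyruvate from oxidation, was at 12.7, 15.2 and 12.8 CPM and 35.1, 143 and 139 CPM (log2 fold change 2.96, standard error 0.48, adjusted p = 0.00306). In Angptl4 and Pdk4, DSS DKO replicate 1 lay nearest the baseline, and both lost their call without both 18S-rich libraries. The count rising was 6 without DSS DKO replicate 2, 7 without DSS DKO replicate 3 or baseline DKO replicate 2, 9 without baseline DKO replicate 3, 11 without baseline DKO replicate 1, and 1 without both 18S-rich libraries. Fabp2, the intestinal fatty acid binding protein, fell from 221, 153 and 243 CPM to 88.2, 110.1 and 109 CPM (log2 fold change -1.01, standard error 0.18, adjusted p = 0.00268).

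Of 29 sterol and fatty acid synthesis genes, 15 fell, 0 rose and 14 did not pass, with a median of -0.77. The count falling was 9 without both 18S-rich libraries and 17 with GC taken out. Hmgcs1, which feeds the mevalonate pathway, was at 299, 404 and 385 CPM and 180.3, 136 and 146 CPM (log2 fold change -1.23, standard error 0.18, adjusted p = 0.000912). Sqle, squalene epoxidase, was at 197, 207 and 248 CPM and 158, 95.4 and 113 CPM (log2 fold change -0.83, standard error 0.18, adjusted p = 0.00636). Dhcr7, which makes cholesterol from its last precursor, was at 102, 133 and 116 CPM and 68.1, 49.1 and 62.7 CPM (log2 fold change -0.96, standard error 0.14, adjusted p = 0.000708). All 3 were lower in every DSS library, with DSS DKO replicate 2 lowest. Mvk, mevalonate kinase, fell from 40.3, 44.7 and 58.8 CPM to 28.5, 20.4 and 19.2 CPM (log2 fold change -1.08, standard error 0.19, adjusted p = 0.00233), and Tm7sf2, a sterol reductase, from 34.7, 42.1 and 47.4 CPM to 20.8, 11.99 and 13.8 CPM (log2 fold change -1.41, standard error 0.19, adjusted p = 0.000599). Fdps, Lss and Cyp51 of the same pathway had log2 fold changes of -1.13, -0.67 and -0.75, with adjusted p of 0.00297, 0.00469 and 0.0101.

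Detoxifying enzymes moved in both directions, 14 of 33 rising and 7 falling. Cyp3a13, a cytochrome P450, rose from 89.97, 76.7 and 72.8 CPM to 161, 257 and 270.1 CPM (log2 fold change 1.52, standard error 0.19, adjusted p = 0.00029). The glutathione transferases Gstm1 and Gstm3 fell, Gstm1 from 193, 239 and 253 CPM to 55.1, 50.9 and 45.4 CPM (log2 fold change -2.18, standard error 0.16, adjusted p = 1.07e-05) and Gstm3 from 56.3, 65.8 and 69.5 CPM to 14.8, 12.3 and 9.41 CPM (log2 fold change -2.39, standard error 0.19, adjusted p = 1.33e-05). The count rising was 9 without DSS DKO replicate 2, 7 without baseline DKO replicate 2 and 3 without both 18S-rich libraries, which left 3 falling. Of 24 antioxidant and NADPH genes, 6 rose and 2 fell, and 3 rose without baseline DKO replicate 2 and 1 without both 18S-rich libraries. The antioxidant and NADPH shares were 25% rising and 8.33% falling, beside 12.6% and 11% of all genes. Prdx6, a peroxiredoxin, fell from 1313, 1725 and 1349.7 CPM to 688, 589 and 689 CPM (log2 fold change -1.16, standard error 0.151, adjusted p = 0.00046), while Srxn1, sulfiredoxin, rose from 125, 99.8 and 119 CPM to 209, 186 and 199 CPM (log2 fold change 0.79, standard error 0.11, adjusted p = 0.000788).

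Respiratory chain and glycolysis genes rose at shares near that of all genes and fell less often. Of 28 respiratory chain genes, 3 rose (10.7%) and 1 fell (3.57%), and of 25 glycolysis and hypoxia genes 4 rose (16%) and 0 fell. These shares stand beside 12.6% rising and 11% falling among all genes. Bnip3, a mitophagy receptor induced by hypoxia, rose from 4.46, 4.41 and 3.65 CPM to 11.4, 14.5 and 14.8 CPM (log2 fold change 1.70, standard error 0.17, adjusted p = 8.07e-05). In the unfolded protein response list, 7 of 27 rose and 1 fell, and 1 rose without both 18S-rich libraries. Dnajb9, a co-chaperone of the endoplasmic reticulum, rose from 37.9, 32.8 and 43.5 CPM to 82.1, 77.1 and 101 CPM (log2 fold change 1.19, standard error 0.146, adjusted p = 0.000321). Hspa5, its chaperone partner BiP, was at 509, 489 and 536 CPM and 1083, 913 and 784 CPM (log2 fold change 0.86, standard error 0.14, adjusted p = 0.00134), a rise that lost its call without both 18S-rich libraries.

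Immediate early and heat shock genes gave 11 rises and 3 falls among 24 tested. Atf3, a stress-induced transcription factor, was at 71.6, 137 and 174 CPM and 587, 589.7 and 374 CPM (log2 fold change 2.02, standard error 0.30, adjusted p = 0.00144), Klf6 at 306, 316 and 361 CPM and 774, 816 and 739 CPM (log2 fold change 1.25, standard error 0.13, adjusted p = 8.50e-05), and Egr2 at 1.39, 1.69 and 4.52 CPM and 25.4, 24.7 and 24.8 CPM (log2 fold change 3.28, standard error 0.41, adjusted p = 0.000566). The groups did not overlap in any of the 3. The count rising was 7 without DSS DKO replicate 1, DSS WT replicate 3 or either baseline WT library, 6 without DSS DKO replicate 2 or baseline DKO replicates 1 or 2, and 3 without both 18S-rich libraries.

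Pla2g4c, a cytosolic phospholipase, was at 129.9, 75.5 and 209.5 CPM at baseline and 2.04, 2.21 and 1.84 CPM after DSS, 68.1-fold lower (log2 fold change -6.09, standard error 0.39, adjusted p = 1.80e-05). Of 23 prostaglandin and phospholipase genes, 4 rose (17.4%, beside 12.6% of all genes) and 6 fell (26.1%, beside 11%). Gasdermin C genes, which encode pore-forming proteins of the gut epithelium, fell. Gsdmc2 was at 1138, 1082 and 1272 CPM and 188, 155 and 115 CPM (log2 fold change -2.93, standard error 0.201, adjusted p = 6.36e-06), Gsdmc3 at 292, 291 and 313 CPM and 49.1, 50.8 and 34.6 CPM (log2 fold change -2.73, standard error 0.17, adjusted p = 2.69e-06), and Gsdmc4 at 1760.3, 1789 and 2081 CPM and 307, 163 and 108 CPM (log2 fold change -3.29, standard error 0.33, adjusted p = 0.000171). These neighbours are close copies, so the split of reads among them is uncertain. The cell death list as a whole had 11 rises and 5 falls among 28, with 7 rises when GC was taken out, 6 without DSS DKO replicate 2, 7 without baseline DKO replicate 2 and 1 without both 18S-rich libraries. Its summed level was 5535, 5441 and 5838 CPM at baseline and 3139.99, 3024 and 2909 CPM after DSS, lower although more members rose than fell. Cdkn1a, the p53 target p21, fell from 192, 223 and 206 CPM to 125, 122 and 134 CPM (log2 fold change -0.71, standard error 0.10, adjusted p = 0.000563).

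Clock genes were shifted, 7 of 17 rising and 2 falling. Nr1d1, the clock repressor REV-ERBα, was at 83.9, 77.4 and 61.3 CPM at baseline and 8.46, 9.78 and 11.9 CPM after DSS (log2 fold change -2.89, standard error 0.19, adjusted p = 3.54e-06). Nfil3, which Nr1d1 is known to repress, was at 7.49, 8.35 and 10.5 CPM and 33.1, 39.9 and 42.04 CPM (log2 fold change 2.13, standard error 0.17, adjusted p = 1.80e-05). In both genes the groups were well apart and the DSS libraries close together. Npas2, a partner of the clock activator, fell from 26.8, 28.4 and 22.3 CPM to 10.1, 7.60 and 8.01 CPM (log2 fold change -1.59, standard error 0.18, adjusted p = 0.0002), and Tef, a clock output factor, rose from 29.8, 29.1 and 21.8 CPM to 52.8, 67.8 and 83.1 CPM (log2 fold change 1.34, standard error 0.18, adjusted p = 0.000531). The sources used here do not give the hour at which tissue was taken. The count rising was 4 without both 18S-rich libraries. Hox genes, which mark position along the gut, had 1 rise and 9 falls among 20, with a median of -0.91, and 4 falls without DSS DKO replicate 2 or baseline DKO replicate 2 and 0 without both 18S-rich libraries.

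Among 38 published targets of miR-181, 9 rose, 4 fell and 25 did not pass, with a median of 0.12, beside backgrounds of 12.6% and 11%. Without both 18S-rich libraries 1 rose. Tgfbi, a matrix protein induced by TGF-β, rose from 12.3, 8.21 and 8.52 CPM to 50.4, 80.6 and 64.9 CPM (log2 fold change 2.76, standard error 0.26, adjusted p = 7.76e-05). Bcl2, the survival protein, was at 13.8, 14.4 and 13.4 CPM and 20.6, 22.5 and 26.7 CPM (log2 fold change 0.75, standard error 0.14, adjusted p = 0.00282), a rise that lost its call without both 18S-rich libraries. Map2k1, a MAP kinase kinase, fell from 257, 301 and 270.4 CPM to 197, 157 and 143 CPM (log2 fold change -0.74, standard error 0.13, adjusted p = 0.00211). By the labels both groups lack the deleted microRNAs, so the comparison holds no measure of their loss.

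**Figure D4:**
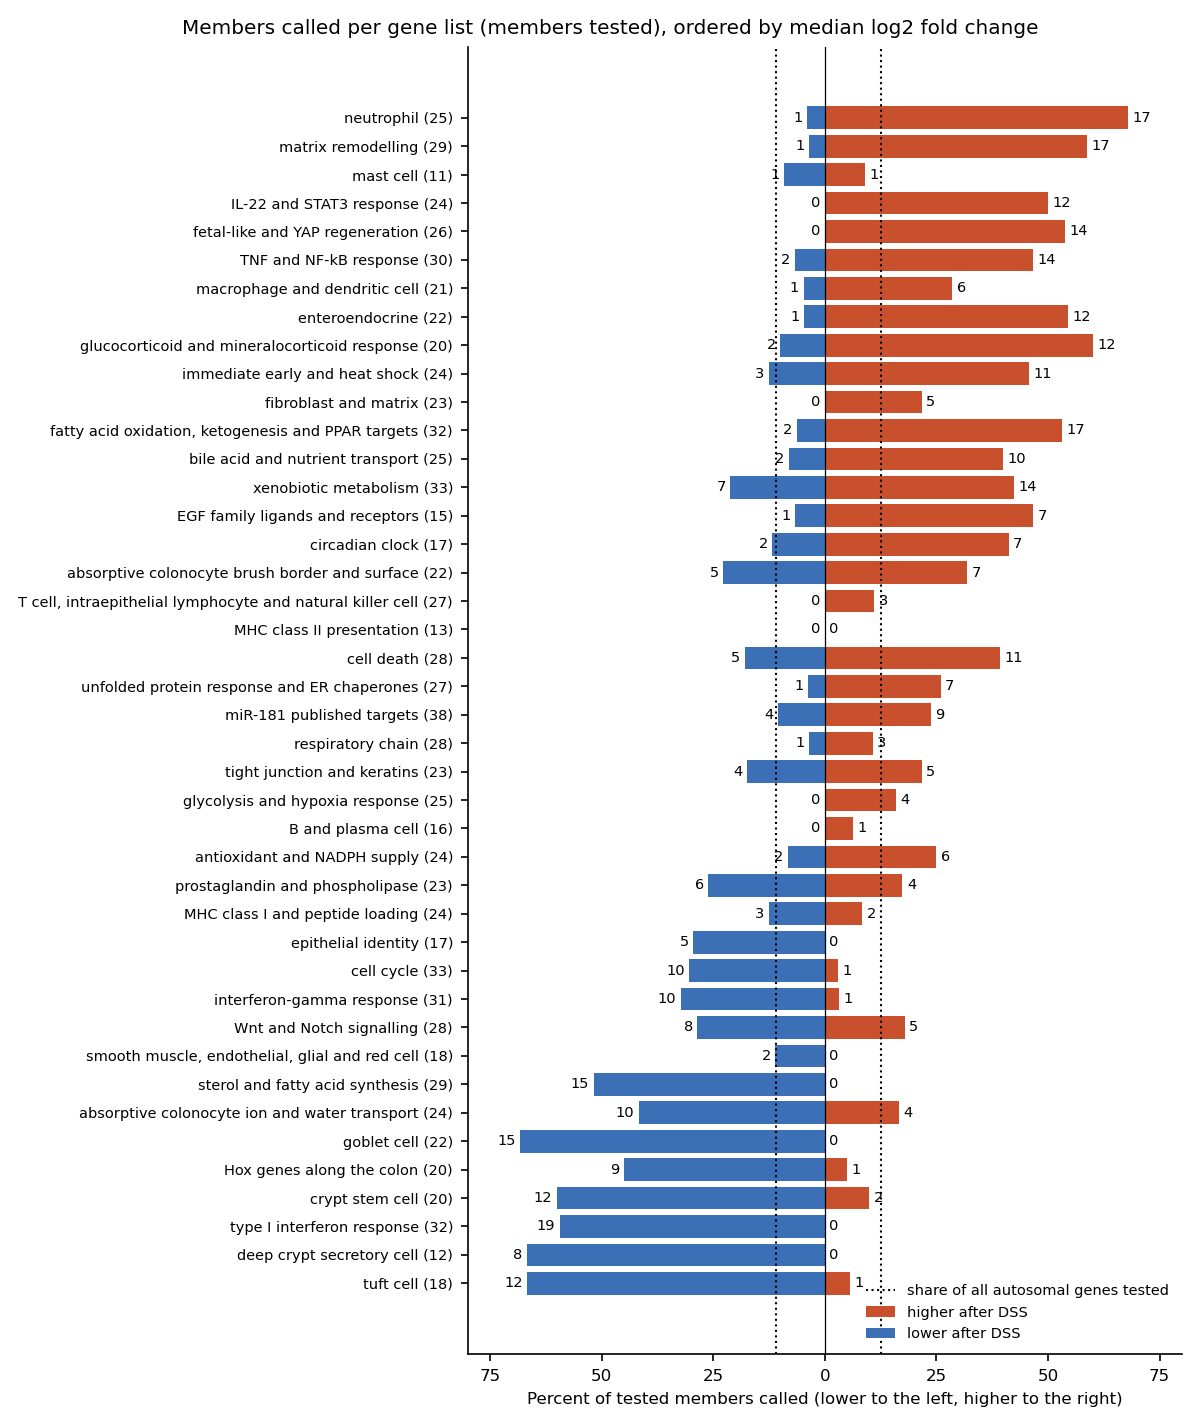
Percent of tested members of each gene list called higher (right) or lower (left) after DSS in DKO, with the counts at the bar ends and the number tested in brackets. Lists are ordered by median log2 fold change, and the dotted lines are the shares over all autosomal genes tested, 12.6% higher and 11% lower. Neutrophil and matrix remodelling lists have the highest medians, and tuft, deep crypt secretory, type I interferon and stem cell lists the lowest.

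Other genes named by size of change follow. Il1rl1, the receptor of interleukin-33, was at 0.464, 0.266 and 0.175 CPM at baseline and 2.98, 35.6 and 64.1 CPM after DSS (log2 fold change 6.88, standard error 1.17, adjusted p = 0.00369). It differed by more than 20 times between DSS DKO replicates 1 and 3, and lost its call with voom and without both 18S-rich libraries. Aldh1a3, which makes retinoic acid, rose from 1.73, 2.01 and 2.70 CPM to 31.97, 41.7 and 21.5 CPM (log2 fold change 3.87, standard error 0.49, adjusted p = 0.000737), and Cxcl5, a neutrophil attractant, from 0.248, 0.436 and 0.835 CPM to 21.3, 12.9 and 8.75 CPM (log2 fold change 4.76, standard error 0.64, adjusted p = 0.000973). Both calls were lost without both 18S-rich libraries. Pnliprp2, a lipase, fell from 55.2, 27.6 and 109 CPM to 2.31, 2.53 and 3.15 CPM (log2 fold change -4.59, standard error 0.54, adjusted p = 0.000661), and Tgm3, a transglutaminase, from 1456, 1477 and 1229.8 CPM to 166, 57.1 and 23.6 CPM (log2 fold change -4.08, standard error 0.62, adjusted p = 0.00215). Lars2, a mitochondrial leucyl-tRNA synthetase, was at 10324, 2002 and 152 CPM at baseline and 51.4, 60.8 and 72.5 CPM after DSS (log2 fold change -6.08, standard error 1.22, adjusted p = 0.0078). Its baseline values ran in the order of the 18S shares of the same libraries, 23.05%, 8.46% and 0.315%, and without both 18S-rich libraries its log2 fold change was -1.31. The part of 18S in it was not tested.

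Clca1 and Mptx1 had the lowest p in the test of the difference between the DKO and WT responses. In WT, Clca1 was at 16499 and 14946 CPM at baseline and 2493, 2502 and 2043 CPM after DSS, a log2 fold change of -2.74 (standard error 0.18) against -6.09 in DKO. The difference was -3.35 (standard error 0.25, adjusted p = 0.000253 by edgeR). Mptx1 in WT was at 3499 and 3784 CPM and 392, 399.5 and 223 CPM, a change of -3.43 against -9.57 in DKO, and the difference was -6.14 (standard error 0.52, adjusted p = 0.00225). Both genes fell in both genotypes, and further in DKO. For other genes the fold changes differed in sign. Slc9a3 was at 249.9 and 197 CPM and 156, 128 and 139 CPM in WT, a change of -0.66 that did not pass the test in WT (adjusted p = 0.0514) against 2.29 in DKO, a difference of 2.95 (standard error 0.32, adjusted p = 0.0043). Cd177 was at 362 and 496 CPM and 811, 853 and 731 CPM in WT, a change of 0.90 against -1.28, a difference of -2.18 (standard error 0.28, adjusted p = 0.00912). Slc5a8 changed by 0.55 in WT and -0.87 in DKO, a difference of -1.42 (standard error 0.17, adjusted p = 0.00811). Ly6g rose in both genotypes, by 2.77 in DKO and 0.90 in WT, a difference of 1.86 (standard error 0.24, adjusted p = 0.0106). Among 9 of the 10 named, well-expressed autosomal genes with the lowest p in this test, Clca1 and St3gal1 kept their call with each library left out. The other 7 lost it without baseline WT replicate 1, which leaves 1 library in that group and 2 genes called in all. Slc34a2, Nxpe2 and Ly6g also lost it without baseline WT replicate 2.

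**Figure D5:**
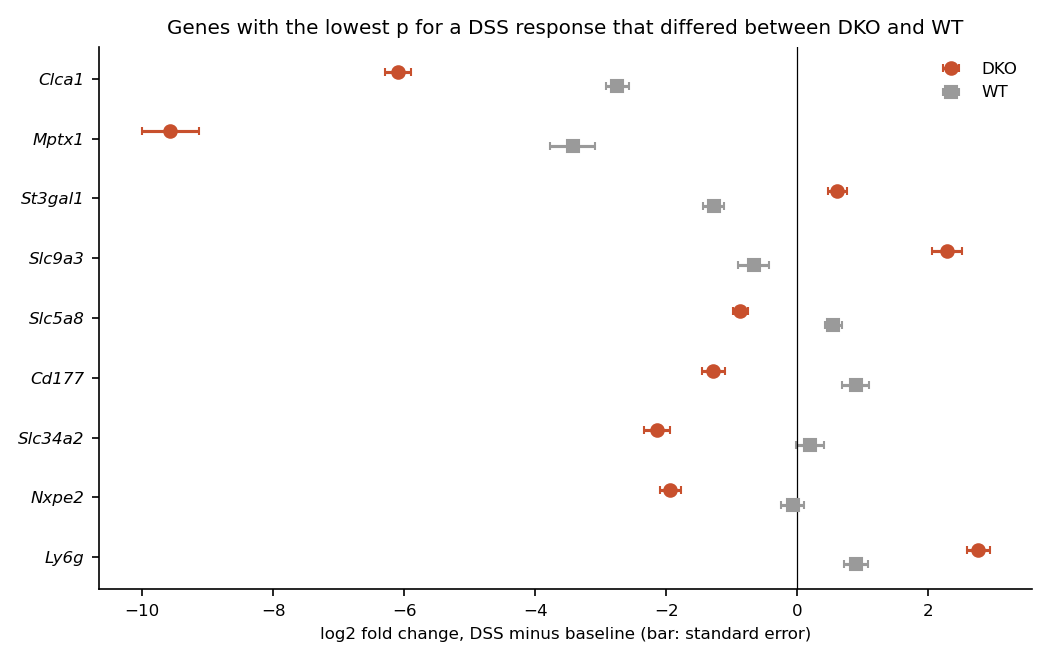
Log2 fold change, DSS minus baseline, in DKO (circles) and WT (squares), with standard errors, for 9 of the 10 named, well-expressed autosomal genes with the lowest p in the test of the difference between genotypes. Clca1 and Mptx1 lie left of 0 in both genotypes and further left in DKO. Slc9a3 lies right of 0 in DKO and left of 0 in WT.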

How the data were processed

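Poly(A) RNA of colonic epithelial cells was sequenced. The authors deposited a table of raw counts per gene, made with STAR on mm10 per the submitters' processing notes. For the counting program, its annotation and its strand setting, nothing is stated in the sources used here. The analysis kept genes passing a filter on low counts (filterByExpr, minimum count 10) and fitted all 11 libraries with edgeR 4.0.16 (R 4.3.3), TMM scaling and robust quasi-likelihood F-tests, two-sided, with Benjamini-Hochberg adjustment over all genes. Calls have an adjusted p under 0.05 and are counted over autosomal genes. Contrasts were DSS minus baseline in DKO, and that response minus the WT response. The 86 ribosomal RNA entries stayed in library sizes in the reported fit.

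Named genes are the 15 rising and 15 falling genes of largest change whose log2 CPM averaged 1 or more and whose groups did not overlap, up to 4 called members with the lowest p in each list plus its defining genes, and, at that level, the 10 autosomal genes with the lowest p between genotypes. Gene models known by number were passed over. Some defining genes were added after values were seen. A few genes that the rule names are not reported here. Members and lists were chosen with earlier results of these data known. Mast cell genes (11 tested) had 1 rise (9.09%) and 1 fall (9.09%), beside 12.6% and 11% of all genes. Alternatives were DESeq2 1.42.0, limma 3.58.1 voom, other filters and scaling, a replicate block, GC correction (chosen after seeing the data, as was the removal of entries that followed 18S) and leaving out libraries. Fits were tested on simulated counts. Of changes set at 1.5-fold, 2-fold and 4-fold, 5.97%, 62.7% and 84.8% were recovered, with 1 false call among 103. The simulation held no 18S or GC differences between libraries. Gene positions and GC come from the GRCm38 annotation, matched for 93.1% of genes. Totals set a CPM precision that counting error limits for genes below a few CPM.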

Additional observations from a re-analysis of the deposited data

Results flagged for a closer look

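Of the 10 autosomal genes that ranked first in the edgeR test of the difference between genotypes, among those with a mean log2 CPM of 1 or more and a name other than a gene model number, 9 are listed here because their DSS response differed between DKO and WT. Each value is the log2 fold change in DKO minus that in WT. The response was lower in DKO for Clca1 (-3.35), Mptx1 (-6.14), Slc5a8 (-1.42), Cd177 (-2.18), Slc34a2 (-2.33) and Nxpe2 (-1.87). It was higher in DKO for Slc9a3 (2.95), St3gal1 (1.89) and Ly6g (1.86). St3gal1, a sialyltransferase, was at 26.6, 25.3 and 22.4 CPM at baseline and 31.03, 42.4 and 40.4 CPM after DSS in DKO, and at 29.6 and 35.5 CPM and 14.1, 13.1 and 13.1 CPM in WT. Its DSS libraries were above the baseline ones in DKO and below them in WT. Without baseline WT replicate 1 the calls of Clca1 and St3gal1 remained and the other 7 were lost. Sex changes with DSS in both genotypes, and its part in these differences was not tested.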

How the results depend on the processing

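Against the 4361 genes called for DSS in DKO, a 2-fold minimum left 2008 and removing both 18S-rich baseline libraries left 901. Leaving out 1 library gave 2488 (without baseline DKO replicate 2) to 5574 (without DSS DKO replicate 1). The 2325 higher genes became 1320 in the 6 DKO libraries alone, 806 at 2-fold, 370 without both 18S-rich libraries, and 1308 to 2628 with 1 library left out. The 2036 lower genes became 3061 with no filter on low counts, 1202 at 2-fold, 531 without both 18S-rich libraries, and 1180 to 2946 with 1 library left out. The 286 genes that differed between genotypes became 1323 with DESeq2, 1409 with no filter, 487 with GC taken out, 82 without both 18S-rich libraries, and 2 to 1450 with 1 library left out. The cause of these shifts was not tested. The share of calls that were higher was 53.3%, and 48.8% with GC taken out, 41.6% with no filter, 44.2% in the DKO libraries alone and 40.1% at 2-fold. Of 218 named genes called, 74 lost the call without both 18S-rich libraries, 8 with GC taken out and 2 to 16 with 1 library left out. Some named genes changed sign, to these log2 fold changes. With GC taken out, Cldn7 was at 0.0048, Cd74 at 0.22, Col1a1 at 0.0013 and Egfr at -0.015. Without both 18S-rich libraries Cdh1 was at 0.043, Col1a1 at 0.15 and Cd68 at 0.050. With 1 library left out Cdh1 ran from -0.16 to 0.0026 and Cd68 from -0.42 to 0.00055, both positive without baseline DKO replicate 2. Of these, Cldn7 was called with all libraries and the others were not. With a replicate block 5081 genes were called for DSS, 4208 of them shared, and 304 for the difference between genotypes. Same-numbered DKO libraries deviated together with correlations of -0.066, -0.036 and 0.011, and differently numbered ones with -0.061 to 0.087. These values gave no sign of pairing by number, but libraries also differed in 18S and GC, so they cannot settle it. Genes with few counts limit what can be compared: those of a few CPM are measured with more counting error than abundant ones.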

Other observations

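Col2a1 and Hspa1a differed between libraries within a group and were chosen after their values were seen. Col2a1, a collagen of cartilage, was at 60.2, 21.7 and 1.90 CPM in the baseline DKO libraries and 2.26, 4.58 and 30.5 CPM in the DSS DKO libraries. The highest values were in baseline DKO replicate 1 and DSS DKO replicate 3, so the groups overlapped. Hspa1a, an inducible heat shock protein, was at 2.54, 5.52 and 32.5 CPM at baseline and 77.2, 50.8 and 2.52 CPM after DSS. Baseline DKO replicate 3 and DSS DKO replicate 3 stood apart from the others of their groups, in opposite directions.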
